A study of Mus musculus with 12 samples.

Results

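Mice that ran on a wheel after restraint stress were compared with unstressed control mice by RNA-seq of the ventral hippocampus. The comparison sets 6 running mice against 3 controls and uses 9 of the 12 libraries of the series. The running mice were pooled over both behavioural outcomes that the labels record: 3 effective responders to running (SES; mice 9, 10 and 12) and 3 ineffective responders (SER; mice 6, 19 and 20). The controls (C; mice 2, 8 and 12) carry the treatment label None. The other 3 libraries came from sedentary stress-susceptible mice (SS; mice 18, 19 and 21), whose spread entered the fit and whose values are given beside some genes. All mice were wild-type C57BL/6J males that were 8 weeks old and naive at the start. SES, SER and SS mice were restrained in tubes for 2 hours a day on 14 days and are labelled stress-susceptible. SES and SER mice then had a running wheel in the home cage, for 14 days according to the sample titles and for 4 weeks according to the protocol. Running mice therefore differed from C mice in both restraint and wheel access, and the effects of these cannot be told apart in this comparison.

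Restraint activates the hypothalamic-pituitary-adrenal axis, and the glucocorticoid it releases enters neurons and glia, binds the glucocorticoid receptor and turns on target genes such as Fkbp5. The ventral hippocampus is rich in corticosteroid receptors and is tied to anxiety-like and emotional behaviour. Voluntary running is known in rodents for effects on hippocampal growth factors, adult neurogenesis and synaptic plasticity, while the brain makes its own cholesterol, mostly in glia, through the sterol synthesis pathway.

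Library totals ran from 9323607 to 15707516 estimated counts, and levels are given as CPM, counts per library total scaled with TMM factors and shown on the usual CPM scale. A count of 0 allowed between 0.191 and 0.322 CPM, depending on the library, for counting error only. Every marker of dentate granule cells, CA1 and CA2/CA3 pyramidal neurons was detected in all 9 libraries. Some libraries stood apart in other tissue markers. Ttr, the transthyretin gene of the choroid plexus, ran from 36.9 to 4711 CPM in running mice and was at 3564, 2.8 and 20.4 CPM in C mice 2, 8 and 12. The summed level of the 18 choroid plexus and ependymal markers was 123 to 5131 CPM in running mice and 24.99 to 3872 CPM in C mice. The summed level of the 12 thalamus markers tested was 257 to 292 CPM in running mice, against 552, 319 and 292 CPM in C mice 2, 8 and 12. Malat1, a noncoding RNA kept in the nucleus, was at 995 to 1992 CPM in running mice and at 508, 266 and 496 CPM in C mice, so these groups did not overlap (log2 fold change 1.72 ± 0.52, SE; adjusted p 0.0886). The parts of choroid plexus, thalamus and nuclear RNA in the results below were not tested. A covariate for Malat1 left 22 higher and 3 lower calls. Because Malat1 itself did not overlap between running and C mice, this covariate cannot be separated from the comparison. Calls lost with it, here and below, therefore do not show what nuclear RNA contributed.

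Of 14548 genes tested, 157 were higher in running mice (1.08%) and 116 were lower (0.797%), together 1.88%, at an adjusted p under 0.05 by edgeR's quasi-likelihood test. The running libraries lay all above the C libraries for 151 of the higher genes and all below them for 113 of the lower ones. Over all genes tested, 6.58% had every running library above every C library and 7.29% had every one below. Most differences were modest: the median absolute log2 fold change of the 273 called genes was 0.49, and 37 of them exceeded 1. Libraries of every group moved the number of calls: without C mouse 8 there were 4 higher and 2 lower calls, without C mouse 12 there were 17 and 16, and without C mouse 2 there were 65 and 41. Leaving out 1 stressed library gave 74 and 54 calls (without SES mouse 9), 126 and 41 (SES mouse 10), 43 and 20 (SES mouse 12), 51 and 20 (SER mouse 6), 239 and 214 (SER mouse 19), 37 and 20 (SER mouse 20), 749 and 588 (SS mouse 18), 110 and 67 (SS mouse 19) and 120 and 59 (SS mouse 21). All 273 genes kept their sign of change in each of these 12 fits.

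**Figure D1:**
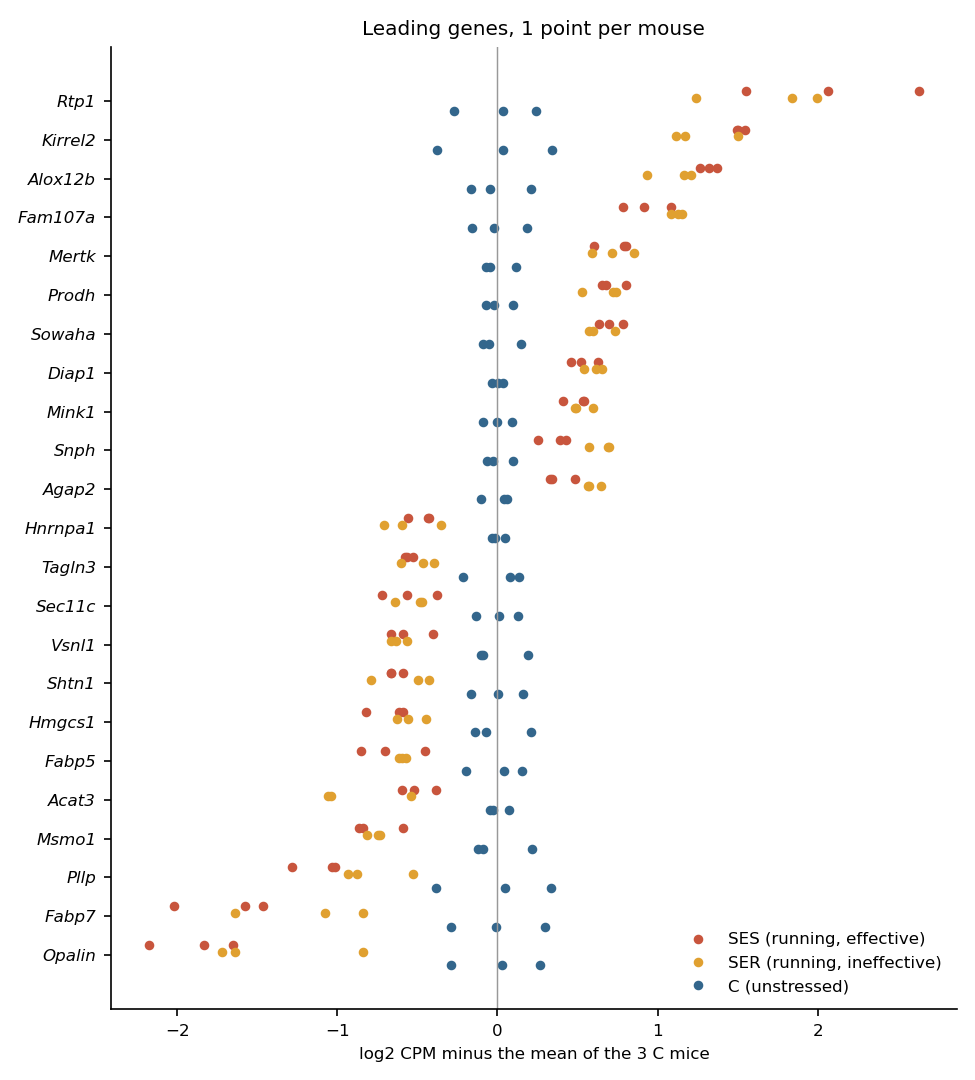
Leading genes, 11 higher and 12 lower, chosen by p and ordered by log2 fold change. Values are log2 CPM minus the mean of the C mice, 1 point per mouse, with SES, SER and C mice in separate colours. All 6 running mice lie right of the C mice for the upper 11 genes and left of them for the lower 12; the log2 fold changes run from 2.01 for Rtp1 to -1.64 for Opalin.

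The gene with the smallest p was Fam107a (chr14:8296270-8317607, mm10), which encodes an actin-binding protein known to be induced by stress and glucocorticoids. Fam107a was at 1031 CPM in the lowest running mouse, 1266 at the median and 1328 in the highest, against 589, 679 and 534 CPM in C mice 2, 8 and 12. Even the lowest running library stood well above the highest C library, and the log2 fold change was 1.02 ± 0.11 (SE, adjusted p 0.00392). The SS mice lay between, at 875, 645 and 702 CPM, and running mice differed from them by 0.72 ± 0.11 without passing the test (adjusted p 0.111). Alox12b (chr11:69157072-69169791), a lipoxygenase known from the skin barrier, was a gene of low level. It ran from 8.87 through a median of 10.99 to 12.1 CPM in running mice, against 4.42, 4.04 and 5.31 CPM in C mice. These groups did not overlap either, and Alox12b rose by 1.23 ± 0.14 (adjusted p 0.00392). Sowaha, which encodes an ankyrin repeat protein, ran from 269 to 312 CPM (median 287) in running mice and was at 170, 174 and 200 CPM in C mice. It rose by 0.67 ± 0.08 (adjusted p 0.00392), and its running and C libraries were also apart.

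Prodh, the mitochondrial enzyme that begins proline breakdown, ran from 45.0 through 50.6 to 54.5 CPM in running mice, against 33.3, 29.6 and 30.7 CPM in C mice, a rise of 0.69 ± 0.09 (adjusted p 0.00637). Kirrel2, a nephrin-like adhesion molecule, ran from 20.4 through 26.6 to 27.6 CPM in running mice, against 11.8, 7.15 and 9.58 CPM in C mice, a rise of 1.39 ± 0.18 (adjusted p 0.00676). Rtp1, known for carrying odorant receptors to the cell surface, had the largest fold of these genes, and its running mice were also the most spread. It ran from 5.05 through 8.18 to 13.5 CPM, against 2.44, 1.66 and 2.09 CPM in C mice (log2 fold change 2.01 ± 0.28, adjusted p 0.00676). A further 5 of these genes were the formin Diap1, the phagocytic receptor Mertk, the kinase Mink1, the axonal mitochondrial anchor syntaphilin (Snph) and the Arf GTPase-activating protein Agap2. They rose by 0.49 (Agap2) to 0.73 (Mertk) on the log2 scale, each with no overlap. Without C mouse 8, Fam107a, Alox12b, Sowaha and Snph kept their calls and the other 7 named here had an adjusted p of 0.0525 to 0.0712; without C mouse 12 the call of Snph was lost (0.0534). With transcript length and GC content corrected, Mink1, Snph and Agap2 lost theirs, and Agap2 was left with a log2 fold change of 0.20; with Malat1 as a covariate Rtp1, Diap1, Mertk, Mink1, Snph and Agap2 lost theirs (adjusted p 0.0504 to 0.0646), and with the highest-count transcript Snph did (0.11).

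Of 21 genes tested that glucocorticoids induce, 4 rose and 0 fell, against 1.08% and 0.797% of all genes, and all 21 had a log2 fold change above 0. Their median was 0.40, against -0.0027 over all genes tested, and 10 of them had running libraries all above the C libraries, against 6.58% of all genes. The rising members were Mertk, Sult1a1, Hif3a and Zbtb16. Sult1a1, a phenol sulfotransferase, ran from 22.3 through 30.9 to 37.7 CPM in running mice and was at 17.7, 9.61 and 11.5 CPM in C mice (1.26 ± 0.20, adjusted p 0.0167). Hif3a, a hypoxia-inducible factor subunit, ran from 10.8 through 13.5 to 16.3 CPM in running mice, against 5.92, 4.26 and 7.75 CPM in C mice (1.19 ± 0.19, adjusted p 0.0181). Sedentary SS mice had 18.1, 14.1 and 15.6 CPM of Hif3a, within or above the range of the running mice. Zbtb16, a zinc finger transcription factor, ran from 66.8 through 74.7 to 85.5 CPM in running mice and was at 43.5, 48.7 and 53.6 CPM in C mice (0.65 ± 0.11, adjusted p 0.019).

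Fkbp5, the co-chaperone that dampens the glucocorticoid receptor and a standard reporter of its activity, missed the threshold. It ran from 110 through 115 to 156 CPM in running mice and was at 68.8, 62.0 and 98.3 CPM in C mice, with 145, 79.4 and 85.4 CPM in SS mice. Running and C libraries did not overlap, and the log2 fold change was 0.67 ± 0.20 (adjusted p 0.0813). Plin4, a lipid droplet protein, had the largest value of the list at 2.24 ± 0.58 and was also not called (adjusted p 0.0632). The receptors themselves were not called: the glucocorticoid receptor Nr3c1 differed by -0.11 ± 0.12 (adjusted p 0.632), the mineralocorticoid receptor Nr3c2 by 0.28 ± 0.14 (0.291) and the receptor for corticotropin-releasing hormone Crhr1 by -0.42 ± 0.23 (0.306), all with overlapping libraries. In the list of 11 genes of corticosteroid and CRH signalling none was called. Its smallest p belonged to the receptor chaperone Hsp90aa1 (-0.37 ± 0.09, adjusted p 0.0572). The list also set C mice apart from each other: the median of the 21 induced genes, relative to the C mean, was 0.33 in C mouse 12, -0.09 in C mouse 2 and -0.17 in C mouse 8, against 0.27 to 0.59 in running mice. Without C mouse 8 none of the 4 genes was called (adjusted p 0.0664 to 0.0839, log2 fold changes of 0.66 to 1.09); Zbtb16 was lost without C mouse 2 (0.0549) and Sult1a1 without C mouse 12 (0.0734). With Malat1 as a covariate Zbtb16 alone kept its call, the other 3 had an adjusted p of 0.0558 to 0.071, and the median of the list was 0.68. The length and GC content correction ended the calls of Hif3a (0.0646) and Zbtb16 (0.103), and the highest-count transcript that of Hif3a (0.579).

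**Figure D2:**
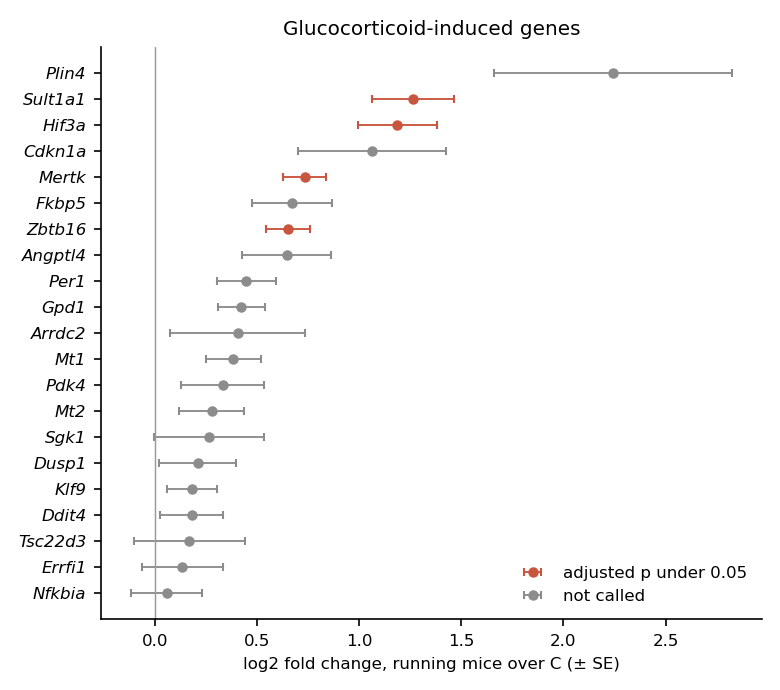
Log2 fold changes of running mice over C mice with their standard errors for the 21 glucocorticoid-induced genes tested, with called genes in colour. All 21 points lie right of 0, and Sult1a1, Hif3a, Mertk and Zbtb16 are the called ones.

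Astrocyte genes were the marker list with the most calls among higher genes. Of 18 tested, 5 rose and 0 fell, against 1.08% and 0.797% of all genes, and the median log2 fold change of the list was 0.22. Bulk tissue does not tell more cells of a type from more RNA per cell, here or in any list below. Clu, the secreted chaperone clusterin, ran from 1166 through 1229 to 1354 CPM in running mice, against 952, 908 and 962 CPM in C mice (0.40 ± 0.07, adjusted p 0.0209). Glul, the glutamine synthetase that clears glutamate, ran from 3107 through 3434 to 4172 CPM in running mice, against 2375, 2606 and 2407 CPM in C mice (0.50 ± 0.11, adjusted p 0.038). Both were free of overlap. Fgfr3, a fibroblast growth factor receptor, ran from 156 through 170 to 175 CPM in running mice and was at 130, 114 and 99.1 CPM in C mice (0.56 ± 0.10, adjusted p 0.0224). For Slc1a2, the main glutamate transporter of astrocytes, and Sox9, a transcription factor of the astrocyte lineage, the lowest running library overlapped the C libraries. Slc1a2 ran from 3710 through 5066 to 6357 CPM in running mice and was at 3654, 3994 and 3407 CPM in C mice (0.47 ± 0.10, adjusted p 0.0427). Sox9 ran from 67.3 through 84.5 to 101 CPM in running mice and was at 68.6, 58.4 and 50.1 CPM in C mice (0.50 ± 0.10, adjusted p 0.0291).

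Within the running mice, Slc1a2 and Sox9 averaged lower in SES than in SER mice, by -0.37 ± 0.12 and -0.48 ± 0.11 on the log2 scale, and neither difference was called (adjusted p 0.999 each). Not all markers of the list moved: Gfap, S100b and Aqp4 were among the 13 not called, and 3 of the 18 had a log2 fold change below 0, of which the lowest was Aqp4, the astrocyte water channel, at -0.32. None of the 5 calls held without C mouse 8 (adjusted p 0.0964 to 0.117) or without C mouse 12 (0.0744 to 0.155), with log2 fold changes of 0.38 to 0.56 in both fits. Without SER mouse 20 only Clu kept its call (0.0574 to 0.0937 for the others), without SES mouse 12 or SER mouse 6 only Clu and Fgfr3 did, without SES mouse 9 or C mouse 2 Glul and Slc1a2 lost theirs, and without SS mouse 19 or 21 Slc1a2 did. Clu alone kept its call after correction for length and GC content; with Malat1 as a covariate Clu, Sox9 and Slc1a2 lost theirs (0.0673 to 0.09) while the list median was 0.34, and with the highest-count transcript Glul (0.0585) and Slc1a2 did (0.947, log2 fold change 0.01).

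Of 22 scaffold and signalling proteins of the postsynaptic density, 4 rose and 0 fell, against 1.08% and 0.797% of all genes. The median log2 fold change was 0.33, and 0.17 after correction for length and GC content; 20 members lay above 0, and 7 were free of overlap and higher, against 6.58% of all genes. Camk2a, the kinase subunit central to long-term potentiation, ran from 5017 through 5854 to 6328 CPM in running mice and was at 4078, 3870 and 4116 CPM in C mice (0.52 ± 0.08, adjusted p 0.0167). Dlg4, which encodes the scaffold PSD-95, ran from 1090 through 1223 to 1390 CPM in running mice, against 829, 898 and 971 CPM in C mice (0.44 ± 0.08, adjusted p 0.0206). For both genes every running mouse exceeded every C mouse. Lrrc7, the scaffold densin, rose by 0.60 ± 0.11 (adjusted p 0.0265). The glutamate receptors that these scaffolds hold did not pass: none of 17 ionotropic subunits was called. Their median was 0.30, but 0.14 without C mouse 12 and 0.08 after correction for length and GC content, and the nearest to a call was the kainate receptor subunit Grik5 (0.34 ± 0.08, adjusted p 0.0566). None of 7 metabotropic glutamate receptors was called (median -0.20), and none of 26 genes of vesicle release (median -0.03).

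Of 21 neuronal calcium sensors and buffers, 2 fell and 0 rose, against 0.797% and 1.08% of all genes. The median of this list was -0.01, with 13 members below 0 and 8 above. Vsnl1, the calcium sensor visinin-like protein, ran from 490 through 508 to 588 CPM in running mice, against 722, 886 and 730 CPM in C mice (-0.59 ± 0.09, adjusted p 0.0119). Pvalb, the calcium buffer parvalbumin of fast-spiking interneurons, ran from 41.1 through 42.2 to 50.8 CPM in running mice, against 57.3, 71.8 and 52.9 CPM in C mice (-0.48 ± 0.11, adjusted p 0.0495). The median of the 16 interneuron markers was -0.03, with Pvalb as the 1 call, against 0.797% of all genes called lower. Of the calls of Camk2a, Dlg4, Lrrc7, Vsnl1 and Pvalb, none held without C mouse 8 (adjusted p 0.0827 to 0.223) or after correction for length and GC content (0.06 to 0.196), Dlg4 and Vsnl1 held without C mouse 12, Camk2a and Vsnl1 without C mouse 2, and Camk2a alone with Malat1 as a covariate. Without SES mouse 12, SER mouse 6 or SER mouse 20 the calls of Camk2a, Dlg4 and Vsnl1 were the ones left, and without SES mouse 9, SES mouse 10, SS mouse 19 or SS mouse 21, or with the highest-count transcript, that of Pvalb was lost.

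**Figure D3:**
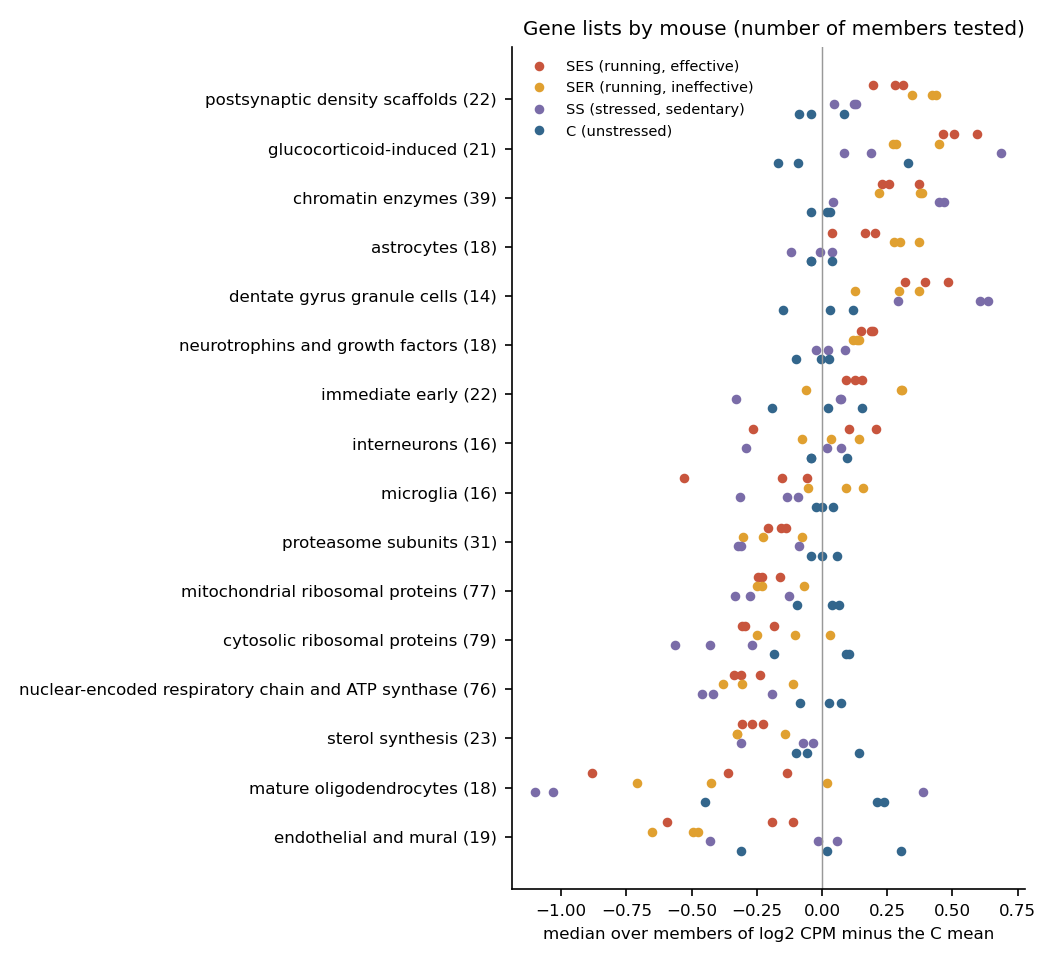
For 16 gene lists, the median over members of log2 CPM minus the C mean, 1 point per mouse, with SES, SER, SS and C mice in separate colours and the number of members tested in brackets. The 6 running mice lie right of the 3 C mice for postsynaptic, chromatin and growth factor lists and left of them for respiratory chain and sterol synthesis lists; they overlap the C mice for oligodendrocytes and endothelium.

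Chromatin enzymes, the writers, erasers, readers and remodellers of histone marks, had 3 of 39 genes that rose and 0 that fell, against 1.08% and 0.797% of all genes. The median was 0.30, 38 had a log2 fold change above 0, and 19 were free of overlap and higher, against 6.58% of all genes. Arid1b, a subunit of the BAF remodelling complex, ran from 123 through 132 to 140 CPM in running mice, against 102, 93.5 and 103 CPM in C mice (0.40 ± 0.07, adjusted p 0.0209). Crebbp, a histone acetyltransferase that acts with CREB, ran from 45.1 through 52.6 to 64.7 CPM in running mice, against 35.2, 32.4 and 26.6 CPM in C mice (0.75 ± 0.14, adjusted p 0.0245). Ehmt2, a histone H3 lysine 9 methyltransferase, rose by 0.36 ± 0.08 (adjusted p 0.0427). In the other direction H2afz, the gene of the histone variant H2A.Z, ran from 143 through 146 to 148 CPM in running mice, against 167, 185 and 194 CPM in C mice (-0.32 ± 0.07, adjusted p 0.0367). It was the 1 call among 9 replacement histones, against 0.797% of all genes called lower, and all 9 had a log2 fold change below 0. The correction for length and GC content brought the median of the enzymes to 0.05 and of the histones to -0.08. The part of transcript length in these differences was not tested. None of these 4 calls held after that correction (adjusted p 0.0743 to 0.772), with Malat1 as a covariate (0.086 to 0.173), or without C mouse 8, C mouse 12 or SER mouse 20 (0.0514 to 0.144). Without SES mouse 12 or SER mouse 6 Arid1b kept its call, without SES mouse 9 or 10 Arid1b and Crebbp did, and without C mouse 2, SS mouse 19 or SS mouse 21 or with the highest-count transcript, the call of Ehmt2 was lost.

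Among 18 neurotrophins, growth factors and their receptors, 2 rose and 0 fell, against 1.08% and 0.797% of all genes. The median log2 fold change was 0.12, and 0.02 after correction for length and GC content. Free of overlap were 2 higher and 2 lower members, against 6.58% and 7.29% of all genes. Ntrk2, the gene of the BDNF receptor TrkB, ran from 570 through 779 to 888 CPM in running mice and was at 590, 574 and 514 CPM in C mice (0.44 ± 0.10, adjusted p 0.0473). The lowest running mouse overlapped the C mice. Vgf, a secreted neuropeptide precursor induced by neurotrophins, ran from 146 through 186 to 201 CPM in running mice and was at 117, 130 and 131 CPM in C mice with no overlap (0.50 ± 0.12, adjusted p 0.0495). Bdnf itself ran from 50.2 through 51.9 to 57.3 CPM in running mice and was at 45.3, 44.5 and 54.5 CPM in C mice. Its groups overlapped and the difference of 0.13 ± 0.09 was not called (adjusted p 0.419). SS mice were the lowest group for Bdnf, at 41.7, 39.4 and 40.0 CPM, and running mice exceeded them by 0.38 ± 0.09 without passing the test (adjusted p 0.118). Igf1, insulin-like growth factor 1, was at 9.26 to 11.8 CPM in running mice and at 13.2, 14.9 and 13.6 CPM in C mice (-0.32 ± 0.11, adjusted p 0.138). Neither call held with transcript length and GC content corrected (0.12 and 0.154), with Malat1 as a covariate (0.129 and 0.288), or without SES mouse 9, SES mouse 12, SER mouse 6, SER mouse 20, SS mouse 19 or any 1 of the C mice (0.0527 to 0.165). Vgf was also lost without SES mouse 10 or SER mouse 19, Ntrk2 without SS mouse 21, and both with the highest-count transcript (0.0515 for Ntrk2 and 0.0768 for Vgf).

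Lower genes were led by Opalin (chr19:41061959-41077113), a membrane protein of mature oligodendrocytes. It ran from 6.54 through 9.24 to 16.7 CPM in running mice, against 30.6, 24.6 and 36.1 CPM in C mice, and fell by 1.64 on the log2 scale (SE 0.21, adjusted p 0.00636). SS mice had 18.9, 15.2 and 11.3 CPM, below all C mice. Opalin kept its call in all 12 fits that left out 1 library. Pllp, the myelin proteolipid plasmolipin, ran from 25.1 through 31.1 to 42.4 CPM in running mice, against 63.3, 46.9 and 77.2 CPM in C mice (-0.97 ± 0.15, adjusted p 0.0167). The wider set of 18 mature oligodendrocyte markers did not follow evenly: 1 fell, which was Opalin, and 0 rose, against 0.797% and 1.08% of all genes. The median was -0.42, 15 were below 0, and 3 were free of overlap and lower, against 7.29% of all genes. Their summed level was 5441 to 9388 CPM in running mice and 9968, 6768 and 11040 CPM in C mice 2, 8 and 12, so that these ranges overlapped. With Malat1 as a covariate neither Opalin (adjusted p 0.0543) nor Pllp (0.0852) was called, and the median of the marker list turned to 0.20; without C mouse 12 Pllp was not called (adjusted p 0.0741).

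Both fatty acid binding proteins among the leading genes fell. Fabp7 (chr10:57784923-57788450), the brain-type carrier of astrocytes and neural progenitors, ran from 15.4 through 21.9 to 35.2 CPM in running mice, against 51.4, 77.4 and 62.5 CPM in C mice. The groups were well apart, and Fabp7 fell by 1.44 on the log2 scale (SE 0.19, adjusted p 0.00637), in the opposite direction to the 5 astrocyte markers that rose. Fabp5, the epidermal-type carrier also made in brain, ran from 73.6 through 87.3 to 97.3 CPM in running mice, against 116, 137 and 148 CPM in C mice (-0.63 ± 0.10, adjusted p 0.0119). Other genes among the 12 with the smallest p were Tagln3, a neuronal actin-associated protein (-0.53 ± 0.09), the RNA-binding protein Hnrnpa1 (-0.51 ± 0.08), the axon outgrowth protein shootin (Shtn1, -0.61 ± 0.10), the signal peptidase subunit Sec11c (-0.54 ± 0.09) and Acat3, a cytosolic acetoacetyl-CoA thiolase (-0.68 ± 0.11). Hnrnpa1 and Acat3 have near-identical copies elsewhere in the genome, so their counts are uncertain. Without C mouse 8 the calls of Opalin and Pllp held and the other 10 of the 12 had an adjusted p of 0.0536 to 0.0839; without C mouse 12 those of Opalin, Fabp7, Hmgcs1, Msmo1 and Vsnl1 held. With Malat1 as a covariate Fabp5, Tagln3, Acat3, Shtn1 and Sec11c lost their calls (0.0787 to 0.101), and after correction for length and GC content Fabp5 (0.0522), Hnrnpa1 (0.0954) and Sec11c (0.0862) did.

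Sterol synthesis turns acetyl-CoA into cholesterol through mevalonate, squalene and lanosterol. Of 23 of its genes tested, 4 fell and 0 rose, against 0.797% and 1.08% of all genes. The median was -0.30, 22 had a log2 fold change below 0, and 8 were free of overlap and lower, against 7.29% of all genes. The summed level of the list was 1010 to 1200 CPM in running mice, against 1336, 1562 and 1320 CPM in C mice. Hmgcs1, which makes HMG-CoA ahead of mevalonate, ran from 177 through 206 to 230 CPM in running mice, against 285, 362 and 298 CPM in C mice (-0.62 ± 0.09, adjusted p 0.0068). Sqle, which makes the epoxide of squalene, ran from 35.8 through 41.7 to 44.7 CPM in running mice, against 52.5, 61.5 and 49.6 CPM in C mice (-0.42 ± 0.10, adjusted p 0.0495). Both were thus lower in every running mouse, at an early and a middle step. Cyp51, the lanosterol demethylase, ran from 45.8 through 54.9 to 59.5 CPM in running mice, against 74.7, 88.9 and 75.2 CPM in C mice (-0.55 ± 0.12, adjusted p 0.0353). Msmo1, the methylsterol monooxygenase that follows it, ran from 58.0 through 61.6 to 70.3 CPM in running mice, against 99.3, 123 and 97.1 CPM in C mice (-0.77 ± 0.10, adjusted p 0.00676). The SS mice also lay below all C mice for Hmgcs1 (215, 208 and 212 CPM), Msmo1 (58.7, 68.7 and 76.8 CPM) and Cyp51 (46.3, 63.0 and 63.9 CPM). The median of the list was little moved by the correction for length and GC content, at -0.29, with Hmgcs1 and Msmo1 still called.

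All 4 sterol calls were lost without C mouse 8 (adjusted p 0.0536 to 0.223, log2 fold changes of -0.65 to -0.32). Without C mouse 2, C mouse 12, SES mouse 10, SES mouse 12, SER mouse 6 or SER mouse 20 the calls of Hmgcs1 and Msmo1 remained and those of Cyp51 and Sqle did not; without SES mouse 9, SER mouse 19, SS mouse 19 or SS mouse 21 Sqle alone was lost. With Malat1 as a covariate Msmo1 alone was called, and with the highest-count transcript Cyp51 (0.0626) and Sqle (0.0731) were not.

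**Figure D4:**
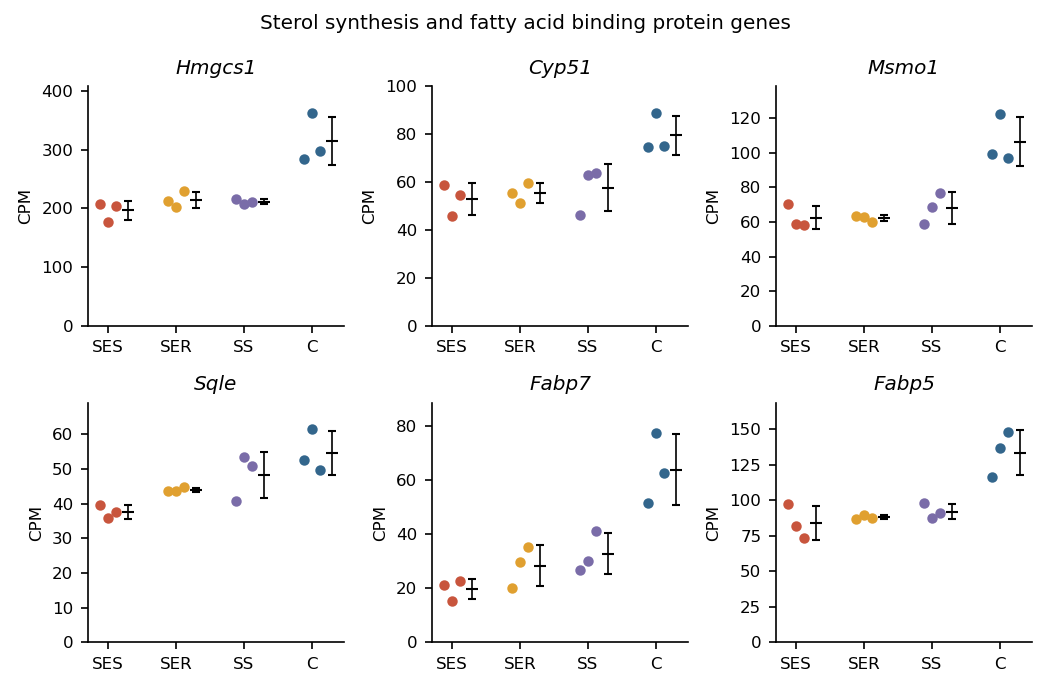
CPM of 4 sterol synthesis genes and 2 fatty acid binding protein genes in each mouse of the SES, SER, SS and C groups, with the mean and SD of each group of 3 beside the points. All SES and SER points lie below all C points in each of the 6 panels.

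Sterol synthesis genes are known targets of the transcription factor SREBP-2, which binds sterol regulatory elements and works with NF-Y at CCAAT boxes, so the promoters of Hmgcs1, Msmo1 and Cyp51 are shown for these motifs; that of Sqle, the other called gene, is not shown. Each is the 250 bases before the gene start, from RefSeq on GRCm38.p6, 5′ to 3′ on the gene's own strand: Hmgcs1 at chr13:119690101-119690350 (plus strand), Msmo1 at chr8:64733579-64733828 (minus strand) and Cyp51 at chr5:4104698-4104947 (minus strand). Capitals mark TCACNCCAC, a core of the sterol regulatory element, and CCAAT, each in either orientation, where no match of one overlapped a match of the other.
Hmgcs1: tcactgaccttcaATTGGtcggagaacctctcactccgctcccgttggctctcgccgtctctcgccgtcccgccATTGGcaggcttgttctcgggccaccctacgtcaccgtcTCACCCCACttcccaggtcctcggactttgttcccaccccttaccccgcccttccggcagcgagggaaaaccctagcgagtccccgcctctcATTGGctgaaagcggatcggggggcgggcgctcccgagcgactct
Msmo1: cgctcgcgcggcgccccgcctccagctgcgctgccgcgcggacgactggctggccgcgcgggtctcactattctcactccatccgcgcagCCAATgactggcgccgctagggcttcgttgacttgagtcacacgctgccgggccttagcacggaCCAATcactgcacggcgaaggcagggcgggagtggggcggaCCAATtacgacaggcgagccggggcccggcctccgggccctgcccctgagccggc
Cyp51: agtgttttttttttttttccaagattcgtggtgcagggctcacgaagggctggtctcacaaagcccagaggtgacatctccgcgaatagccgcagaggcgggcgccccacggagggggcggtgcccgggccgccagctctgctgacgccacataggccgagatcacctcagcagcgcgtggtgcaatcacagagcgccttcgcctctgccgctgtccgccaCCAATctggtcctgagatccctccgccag
Hmgcs1 held TCACNCCAC 1 time and CCAAT 3 times, Msmo1 held CCAAT 3 times and Cyp51 held it 1 time. The 16 sterol synthesis genes tested that had a promoter in the table had 19 windows. All 16 genes held CCAAT in at least 1 window, and 1 gene held TCACNCCAC. Of 32851 promoter windows of the same length, 33.8% held CCAAT and 1.05% held TCACNCCAC. The former counts are per gene and the latter shares per window, so they are not like for like. These matches describe the letters of the windows and were not measured as binding.

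Of 76 nuclear genes of the respiratory chain and ATP synthase, 10 fell and 0 rose, against 0.797% and 1.08% of all genes. The median was -0.28, 75 had a log2 fold change below 0, and 37 were free of overlap and lower, against 7.29% of all genes. Uqcrb, a subunit of complex III, ran from 76.3 through 86.9 to 102 CPM in running mice, against 124, 126 and 135 CPM in C mice (-0.55 ± 0.09, adjusted p 0.0206). Ndufa5, a subunit of complex I, ran from 79.0 through 84.9 to 104 CPM in running mice, against 120, 125 and 142 CPM in C mice (-0.54 ± 0.10, adjusted p 0.0265). Every running mouse was below every C mouse in both. Cox7b, a subunit of complex IV, fell by 0.41 (SE 0.08, adjusted p 0.0335) and Ndufc1 of complex I by 0.51 (SE 0.10, adjusted p 0.031). Of 77 mitochondrial ribosomal proteins, 2 fell, Mrpl13 and Mrpl42, against 0.797% of all genes, with a median of -0.19. Of 79 cytosolic ribosomal proteins, 1 fell, Rpl23, with the same median of -0.19, and of 31 proteasome subunits, 1 fell, Psmb7, again with a median of -0.19. The single calls of Rpl23 and Psmb7 stand beside the same 0.797% of all genes. Members free of overlap and lower numbered 16 of 77 mitochondrial ribosomal, 5 of 79 cytosolic ribosomal and 12 of 31 proteasome genes. Over all genes the share was 7.29%, and the 5 of 79 lay near it. Glycolysis had no call among 17 enzymes (median -0.12), nor had the 24 exercise-linked metabolic genes (median -0.01).

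The SS mice had still lower values for the respiratory chain list in 2 of 3 libraries: relative to the C mean its median was -0.19, -0.46 and -0.42 in SS mice 18, 19 and 21, against -0.38 to -0.11 in running mice. After the correction for length and GC content the medians were -0.12 for the respiratory chain, -0.11 for mitochondrial ribosomal proteins, -0.01 for cytosolic ribosomal proteins and -0.08 for the proteasome. The part of transcript length was not tested here either. Without C mouse 8 the cytosolic ribosomal median was -0.12, and without C mouse 2 it was -0.29. None of the 8 genes named here (Uqcrb, Ndufa5, Ndufc1, Cox7b, Mrpl13, Mrpl42, Rpl23 and Psmb7) was called after that correction (adjusted p 0.0853 to 0.297), with Malat1 as a covariate (0.0957 to 0.227), without C mouse 8 (0.0839 to 0.208) or without C mouse 12 (0.0832 to 0.155). Without SES mouse 12, SER mouse 6 or SER mouse 20 Uqcrb alone was called, without SES mouse 10 or C mouse 2 Uqcrb and Ndufa5 were, and without SES mouse 9, SS mouse 19 or SS mouse 21 between 4 and 6 of the 8 were; Mrpl13, Mrpl42 and Rpl23 were not called with the highest-count transcript.

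Across all genes, the size and sign of the difference followed transcript length. The median length was 4489 bases for called higher genes and 1744 bases for called lower genes, against 2990 bases for all genes tested that had a length. In genes with transcripts of 132 to 1928 bases the median log2 fold change was -0.14, with 9 higher and 71 lower calls, and in those above 4455 bases it was 0.13, with 80 higher and 8 lower calls. The median GC content of transcripts was 54.65% for called higher genes and 47.07% for called lower genes, against 50.45% for all. With both corrected within each library, 15 genes were higher and 13 lower. The correction takes out any difference that follows length or GC content, biological or technical, and the source of the trend was not tested. Of the genes named above, Fam107a (0.99), Alox12b (1.18), Prodh (0.63), Rtp1 (2.01), Sult1a1 (1.40), Opalin (-1.56), Fabp7 (-1.22) and Msmo1 (-0.67) were among those still called, with log2 fold changes close to those before. Diap1 also kept its call but moved further, from 0.57 to 0.41. Between running and SS mice the median log2 difference was 0.005 in the shortest of 4 equal length classes and 0.0095 in the longest.

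**Figure D5:**
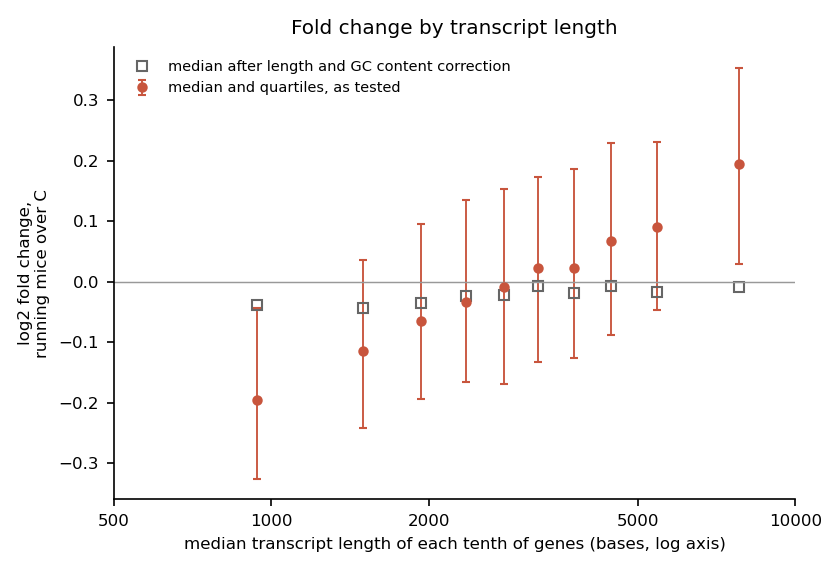
Median log2 fold change of running mice over C mice (circles, with quartiles as bars) in 10 equal classes of genes ordered by transcript length, on a log axis of bases, and the same medians after the correction for length and GC content (open squares). The medians run from -0.19 in the shortest class to 0.19 in the longest, and the corrected ones from -0.04 to -0.01. The correction removes trends with length, so the corrected medians are small by construction.

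Of 19 endothelial and mural markers of blood vessels, 3 fell and 0 rose, against 0.797% and 1.08% of all genes. The median was -0.49, and -0.25 without C mouse 2, and 18 had a log2 fold change below 0. Itm2a, a membrane protein of brain endothelium, ran from 19.7 through 24.6 to 32.2 CPM in running mice, against 46.1, 50.7 and 39.3 CPM in C mice (-0.83 ± 0.14, adjusted p 0.0206). Myh11, the smooth muscle myosin of arteries, ran from 3.74 through 4.38 to 5.69 CPM in running mice, against 10.8, 8.52 and 6.45 CPM in C mice (-0.94 ± 0.18, adjusted p 0.0265). Ly6c1, an endothelial surface antigen, ran from 9.56 through 13.4 to 26.7 CPM in running mice, against 28.8, 35.8 and 32.1 CPM in C mice (-1.03 ± 0.24, adjusted p 0.0473). All 3 were free of overlap, although the summed level of the list, 210 to 305 CPM in running mice and 408, 362 and 279 CPM in C mice 2, 8 and 12, was not. Cldn5, Flt1 and Pecam1, defining markers of endothelium, were not among the calls.

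Single markers of other cells also passed, 1 in each list named here, against 1.08% of all genes called higher and 0.797% called lower. Csf1r, the receptor that microglia need to survive, ran from 81.4 through 101 to 112 CPM in running mice, while C mice lay together at 72.6, 72.4 and 72.3 CPM (0.45 ± 0.09, adjusted p 0.0296), but the median of the 16 microglial markers was -0.14. Pdzd2, a marker of dentate granule cells, ran from 36.4 through 62.2 to 63.7 CPM in running mice, against 34.3, 30.4 and 32.3 CPM in C mice (0.77 ± 0.15, adjusted p 0.0265). The 14 dentate markers had a median of 0.33, which was 0.21 without C mouse 8, and 13 of them lay above 0. Pcp4, a calmodulin regulator of CA2 neurons, fell by 0.84 (SE 0.18, adjusted p 0.0414), ranging from 111 to 180 CPM in running mice, against 326, 208 and 186 CPM in C mice. Pou3f1, a transcription factor of CA1 pyramidal neurons, ran from 94.5 through 107 to 119 CPM in running mice and was at 76.2, 71.2 and 90.8 CPM in C mice (0.44 ± 0.10, adjusted p 0.0495). Of the 8 marker calls (Opalin, Itm2a, Myh11, Ly6c1, Csf1r, Pcp4, Pdzd2 and Pou3f1), Opalin alone held without C mouse 8, the others having an adjusted p of 0.102 to 0.208, and none held with Malat1 as a covariate (0.0543 to 0.215). Opalin and Itm2a held without C mouse 2 or SER mouse 20, joined by Myh11 without C mouse 12, by Csf1r without SES mouse 12 and by Pdzd2 without SER mouse 6; between 4 and 7 of the 8 held without SES mouse 9, SES mouse 10, SER mouse 19, SS mouse 19 or SS mouse 21. Opalin and Myh11 held after correction for length and GC content, and Myh11, Ly6c1, Pcp4 and Pou3f1 were not called with the highest-count transcript (0.0705 to 0.362).

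In 20 of the 41 lists no member was called in the main fit over all 12 libraries. Among 22 immediate early genes, the markers of recent neuronal activity, the median was 0.19, and Egr4 came nearest (0.73 ± 0.18, adjusted p 0.0562). Fos ran from 13.0 through 15.6 to 36.0 CPM in running mice and was at 18.6, 19.8 and 12.3 CPM in C mice, with groups that overlapped (0.11 ± 0.36, adjusted p 0.895). Circadian clock genes (19 tested, median 0.08), neurogenesis markers (10, median -0.06), voltage-gated channels (27, median 0.12, or -0.10 after correction for length and GC content), interferon response genes (20, median -0.29), MHC class I and complement (17, median 0.09) and neuropeptides (19, median -0.10, or 0.06 without C mouse 8) had no call either. These absences depend on the fit. With the 9 libraries alone as 3 groups, edgeR gave 611 higher and 371 lower calls over all genes. Egr4 (adjusted p 0.0137), the calcium channel gene Cacna1a (0.0352) and the complement gene C4b (0.0309) were among them. The 12 thalamus markers had the lowest median of the 41 lists, -0.93, without a call; it was -0.35 without C mouse 2. Choroid plexus and ependymal markers had a median of 0.14, which was 2.90 without C mouse 2 and -0.38 without C mouse 8.

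Set against the sedentary stress-susceptible mice, the running mice differed in 1 gene of 14548, Pou3f1 (0.00687% of genes higher, 0% lower). Pou3f1 was at 59.6, 67.3 and 50.8 CPM in SS mice 18, 19 and 21, below all 6 running mice, whose range of 94.5 to 119 CPM is given above (0.86 ± 0.11, adjusted p 0.0222). At an unadjusted p under 0.05 there were 2498 genes, DESeq2 called 405, and without SS mouse 18 edgeR called 2484. That library set itself apart from SS mice 19 and 21 in Malat1 (511 against 3813 and 5270 CPM), in Ttr (5151 against 5.8 and 12.1 CPM) and in the summed oligodendrocyte level (13530 against 4194 and 3993 CPM). Pou3f1 was not called without SES mouse 9, SES mouse 10, SER mouse 6, SER mouse 20, SS mouse 21 or C mouse 2, when no gene was. Running mice against C and against SS share their 6 libraries, so the values stand side by side only: Sox9 differed by 0.50 ± 0.10 from C and 0.55 ± 0.10 from SS, Mink1 by 0.51 ± 0.08 and 0.04 ± 0.07, and Vsnl1 by -0.59 ± 0.09 and 0.12 ± 0.09.

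The pooled running groups themselves did not differ in any gene by edgeR's quasi-likelihood test (0% in either direction). At an unadjusted p under 0.05 there were 534 genes, the smallest adjusted p was 0.999, DESeq2 called 1 gene and limma-voom called 0. Among the 273 genes called against C, 22 had an unadjusted p under 0.05 between SES and SER, and the median absolute log2 difference was 0.10. Among the genes named here, Ly6c1 averaged higher in SES mice (0.78 ± 0.29) and Fos averaged lower (-0.61 ± 0.41). The summed level of choroid plexus and ependymal markers, Ttr among them, was 963, 5131 and 2695 CPM in SES mice 9, 10 and 12. In SER mice 6, 19 and 20 it was 123, 1241 and 125.5 CPM. The 2 groups thus overlapped, and the sum was not tested. Opalin and Fabp7 each averaged lower in SES than in SER mice, by -0.52 ± 0.26 and -0.52 ± 0.23. Lars2, Zc3h7a, Cmss1 and Filip1l, set aside here, are listed at 0 in all 3 SER libraries and above 0 in all others, and whether the SER files were made in the same way as the rest was not tested, which bears on pooling them with SES. With 3 mice in each group, an adjusted p near 1 does not show that effective and ineffective responders had the same levels.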

How the data were processed

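The authors deposited estimated counts per transcript for each library, all whole numbers, covering 33299 transcripts of 23183 gene symbols; TopHat and mm10 are named per the submitters' processing notes, and for the counting tool, its strand setting and the annotation the entry is: not given in the sources used here. RNA was extracted with Trizol and libraries were made with a directional kit from 1.3 µg of total RNA, per the labels' protocols. Transcript counts were summed per symbol, and Lars2, Zc3h7a, Cmss1 and Filip1l were set aside before library sizes were taken. No value column was left out (0 columns).

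Genes passing filterByExpr (minimum count 10; 14548 genes) were fitted over all 12 libraries as 4 groups with edgeR 4.0.16 in R 4.3.3 (TMM factors 0.963 to 1.04, quasi-likelihood test, 8 residual degrees of freedom, biological coefficient of variation 15.7%). Running mice are the mean of SES and SER. P-values were adjusted by Benjamini-Hochberg over all genes, with a threshold of 0.05. The fit was tested on simulated data. Each library carries 1 mouse number, so p-values measure the spread between these mice. Standard errors come from the same test and include that spread. Floors (3 counts) cover counting error only.

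The 41 gene lists (26 pathway, 15 marker) and the members were chosen with earlier results of these data known. Named genes were the 12 higher and 12 lower called genes of smallest p without overlap, up to 4 called genes per list or its member of smallest p, and Bdnf, Nr3c1, Nr3c2, Fkbp5, Crhr1, Igf1, Fos, Malat1, Ttr, Pou3f1, Sox9 and Fam107a; others were named after their values were seen. Alternatives were other scalings and filters, DESeq2 1.42.0, limma 3.58.1 (voom), the 9 libraries alone, Malat1 or choroid plexus level as a covariate, a length and GC content correction (98.87% of genes had both values), the highest-count transcript per gene, and each library left out. Tables and figures used Python 3.11.15 with pandas 2.3.3, numpy 2.4.6 and matplotlib 3.10.9. Results of a few genes are not reported here.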

Additional observations from a re-analysis of the deposited data

Results flagged for a closer look

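Of 79 genes examined for a running library far from the other 5, 5 passed Dixon's 95% critical value for 6 samples (0.625 of the range); chance flags about 1 in 20 groups. Fkbp5 was at 156 CPM in SES mouse 12, against 110 to 124 CPM in the others. Fos was at 36.0 CPM in SER mouse 20, against 13.0 to 18.3 CPM. Igf1 was at 9.26 CPM in SER mouse 6, below the other 5 running mice. Pvalb was at 50.8 CPM in SER mouse 19, against 41.1 to 43.5 CPM. Vsnl1 was at 588 CPM in SES mouse 10, where the highest of the others had 523 CPM.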

How the results depend on the processing

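No paired analysis was possible because the groups compared share at most 1 mouse number. The 157 higher and 116 lower calls became 566 and 476 with DESeq2, 611 and 371 with the 9 libraries as 3 groups, 591 and 385 with them as 2 groups, 22 and 3 with Malat1 as a covariate, 372 and 282 with choroid plexus level as a covariate, 15 and 13 after the length and GC content correction, and 72 and 44 with the highest-count transcript per gene. Leaving out 1 library gave 4 to 749 higher and 2 to 588 lower genes. Of 2 alternatives chosen after seeing the data, leaving out libraries above 1000 CPM of Ttr gave 632 and 326, and the 9 libraries without C mouse 8 gave 121 and 43. The 273 genes kept their sign in every fit but that of the highest-count transcript (270 of 273). The 1 gene between running and SS mice became 2 without a filter, 405 with DESeq2, 6 with the 4 genes kept, 0 with the Malat1 covariate, 7 with the choroid covariate, 2 with the highest-count transcript, 2276 without the Ttr-rich libraries and 0 to 2484 with 1 library left out. The 0 genes between SES and SER became 1 with DESeq2, 4 with the 4 genes kept, 1 with the highest-count transcript and 2 without the Ttr-rich libraries. Uncalled log2 fold changes that turned sign were Bdnf (-0.28, highest-count transcript), Fos (-0.60, Malat1 covariate; -0.14 to 0.25 with 1 library left out) and Nr3c1 (0.02 without the Ttr-rich libraries, 0.025 for the 9 libraries without C mouse 8, and -0.21 to 0.024 with 1 library left out). The cause was not tested.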

Other observations

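The 7 called lower genes below encode tubulins, stathmins and a thymosin; they were chosen after their values were seen, from no fixed list, so they describe themselves only. Tuba1a, an alpha-tubulin of developing neurons, ran from 422 through 492 to 532 CPM in running mice, against 673, 658 and 648 CPM in C mice (log2 fold change -0.46 ± 0.08, adjusted p 0.0209 by edgeR). Stmn1, the microtubule-destabilising stathmin, ran from 216 through 298 to 372 CPM in running mice, against 412, 580 and 494 CPM in C mice (-0.70 ± 0.15, adjusted p 0.0367). Neither gene's groups overlapped. Tubb3 (-0.43 ± 0.09), Stmn2 (-0.41 ± 0.09), Stmn4 (-0.39 ± 0.08) and the actin-binding thymosin Tmsb10 (-0.76 ± 0.17) were called too. Tuba1b was called as well (adjusted p 0.0465 by edgeR), but Tuba1a and Tuba1b are near-identical, so how their counts were split is uncertain. None of these 7 genes was called without C mouse 8 (adjusted p 0.0839 to 0.218) without C mouse 12 (0.0731 to 0.148) or with Malat1 as a covariate (0.0839 to 0.231). After correction for length and GC content Tuba1a and Tubb3 were called and the other 5 were not (0.06 to 0.207).

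Lars2, a mitochondrial leucyl-tRNA synthetase gene set aside from the fit, had 153581, 74128 and 201495 counts in SES mice and is listed at 0 in each of the 3 SER libraries, against 153046, 229501 and 138265 counts in C mice. Zc3h7a, Cmss1 and Filip1l were likewise listed at 0 in all 3 SER libraries and above 0 in every other library. Whether the SER files were made in the same way as the others was not tested, so these zeros are not read as levels.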
